A study of Rattus norvegicus with 9 samples.

Results

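The hepatocyte miRNAs examined here are 9 mature miRNAs taken as enriched in liver. They are both arms of miR-122, both arms of miR-192, miR-194-5p, both arms of miR-802, miR-193a-5p and miR-365-3p. They were chosen by name from a matrix of read counts for 567 miRNAs, and all 9 were found there. A miRNA is a short RNA that binds messenger RNAs through its seed, bases 2 to 8, and lowers their translation and stability. miR-122 is the dominant miRNA of hepatocytes, where it is known for its part in cholesterol and lipid metabolism. Hepatocytes release it when they are damaged, so its level in blood is a widely used marker of liver injury, alongside miR-192, which the intestine and kidney also express.

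The samples were serum of wild-type male Wistar rats, 3 libraries in each of 3 groups. LPD rats received rotenone, a mitochondrial complex I inhibitor, at 2 mg per kg per day by intraperitoneal injection for more than 40 days as a late stage of a Parkinson's disease model, EPD rats received it for 10 days as an early stage, and Control rats formed the third group. Control and rotenone rats carry one and the same treatment label, and it is not stated what the controls were injected with. Serum pools RNA from many tissues. From a level in serum, fewer cells of a type in a tissue and less RNA released per cell cannot be told apart.

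Total miRNA counts were 132609 to 305019 in the LPD libraries, 1136537 to 1668807 in EPD and 1108167 to 1539557 in Control. Values per library are given as CPM, counts brought to one common library size after scaling by TMM (a trimmed mean of ratios between libraries). The LPD libraries held few low counts: 3, 9 and 39 miRNAs had between 1 and 9 counts there, against 127 to 155 in EPD and 150 to 157 in Control. A count of 0 in an LPD library, which by counting alone allows up to 3 counts or 9.94 to 19.8 CPM, may therefore allow more, and no fold change is given for a member with a 0 in LPD.

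The mature sequences of 7 of the 9 members, those held in the RefSeq tables on build GRCr8, are shown because shared seeds or copies bear on which reads can be told apart. Capitals mark the seed.
miR-122-5p: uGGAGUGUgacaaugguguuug
miR-122-3p: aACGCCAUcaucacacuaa
miR-192-5p: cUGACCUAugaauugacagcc
miR-192-3p: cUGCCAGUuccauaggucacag
miR-194-5p: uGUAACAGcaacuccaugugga
miR-193a-5p: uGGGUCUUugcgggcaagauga
miR-365-3p: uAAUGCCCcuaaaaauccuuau
The other two members are miR-802-5p and miR-802-3p. The 7 seeds all differ from one another, so the members do not form a seed family. Outside the members, miR-215, printed below for comparison, has the seed of miR-192-5p and equals it at 18 of 21 positions counted from the 5′ end; miR-3084c-3p has the seed of miR-192-3p and equals it at 13 of 21 positions. Neither was analysed here, because no count was available for either. Whether their reads were counted with the members was not tested.
miR-215: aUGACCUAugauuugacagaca

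On GRCr8, miR-122-5p lies at chr18:61028831-61028852 and miR-122-3p at chr18:61028867-61028885, on the plus strand of the gene Mir122. miR-192-5p lies at chr1:212994232-212994252, plus strand, in Mir192, whose hairpin is separated by 100 bases from that of Mir194-2. miR-194-5p is encoded there, at chr1:212994038-212994059, and a second time with the same letters in Mir194-1 at chr13:99382730-99382751, next to Mir215, so its counts come from either locus. miR-193a-5p at chr10:65170336-65170357 and miR-365-3p at chr10:65184271-65184292 lie on the plus strand of chromosome 10, with 13814 bases between the hairpins. An RNA from the opposite strand of the miR-193a locus, miR-3549, had 0 counts in every library.

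Control 2 stood far from the other libraries, so the main values that set a group against Control are given with and without it. miR-122-5p had 14561, 16358 and 37019 CPM in LPD 1 to 3, 12230, 11798 and 44578 CPM in EPD 1 to 3, and 22284, 662182 and 45708 CPM in Control 1 to 3. The groups overlapped, and without Control 2 the highest library was Control 3. Among the miRNAs of a library, miR-122-5p ranked 13, 11 and 3 in the LPD libraries, 21, 20 and 5 in EPD, and 11, 1 and 4 in Control. In each group a single library stood above the other two: LPD 3, EPD 3 and Control 2.

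**Figure D1:**
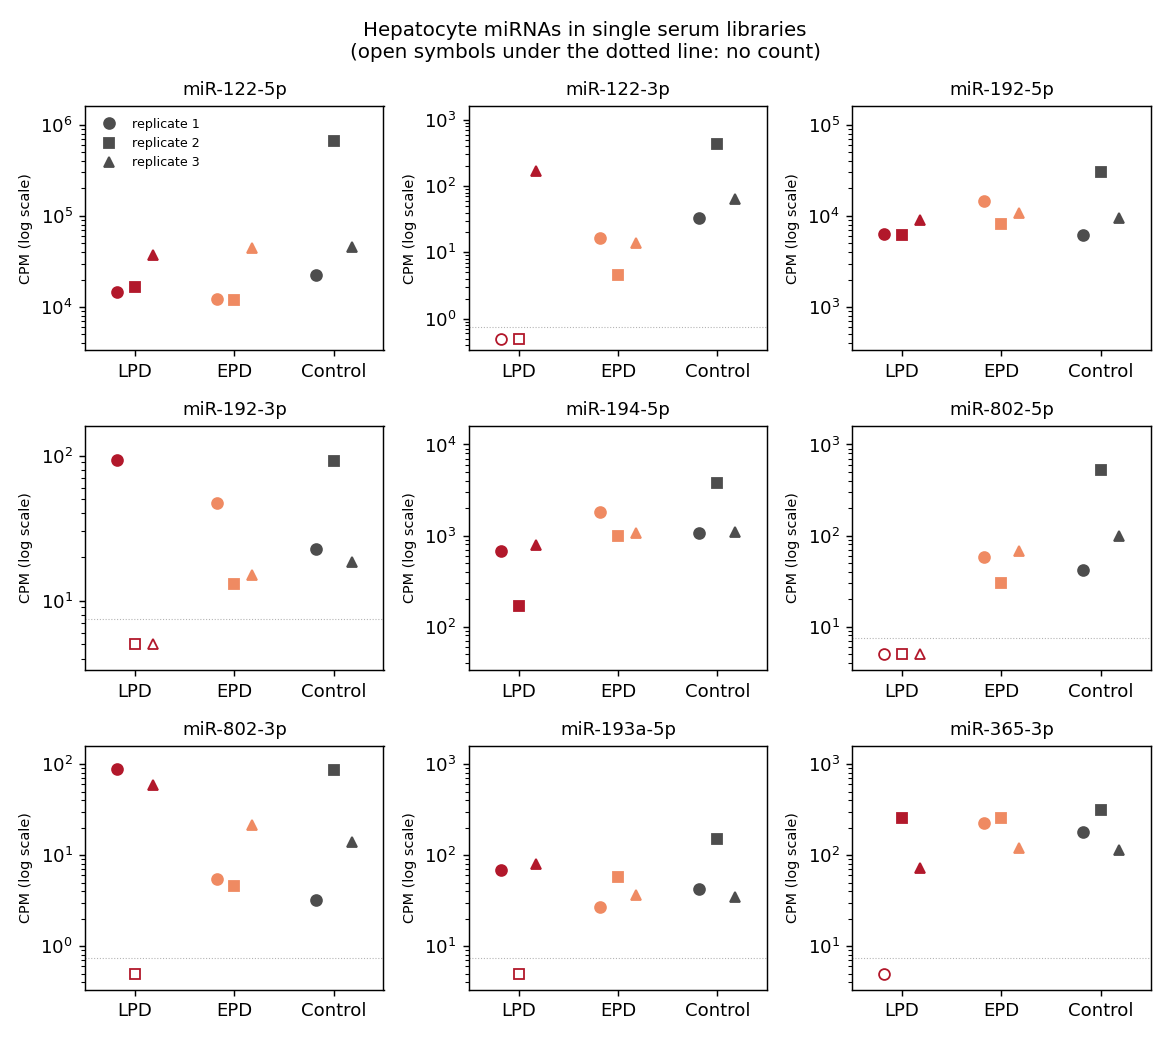
CPM of each member in the 9 libraries on a logarithmic axis, by group, with the symbol giving the replicate number and open symbols a count of 0. Control 2 is the highest of all 9 libraries for 7 members, and miR-802-5p has no count in any LPD library.

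Together the members made up 2.16, 2.43 and 5.40% of the counts in the LPD libraries, 2.54, 2.44 and 5.63% in EPD, and 3.30, 46.7 and 6.37% in Control (the 95% Wilson interval for Control 2 was 46.6 to 46.8%, covering counting error only). In group means this was 3.33 ± 1.80% in LPD, 3.54 ± 1.81% in EPD and 18.8 ± 24.2% in Control (SD, n = 3 each), or 4.84 ± 2.17% in Control without Control 2 (n = 2). Of the member counts, miR-122-5p gave 94.9% in Control 2 and 42.2 to 80.7% in the other 8 libraries. With miR-122-5p taken out of both members and totals, the other 8 members still made up 4.30% of the counts of Control 2, against 0.854 and 1.30% in Control 1 and 3, 0.707 to 1.22% in LPD and 1.11 to 1.49% in EPD. Control 2 was the highest library in both measures.

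**Figure D2:**
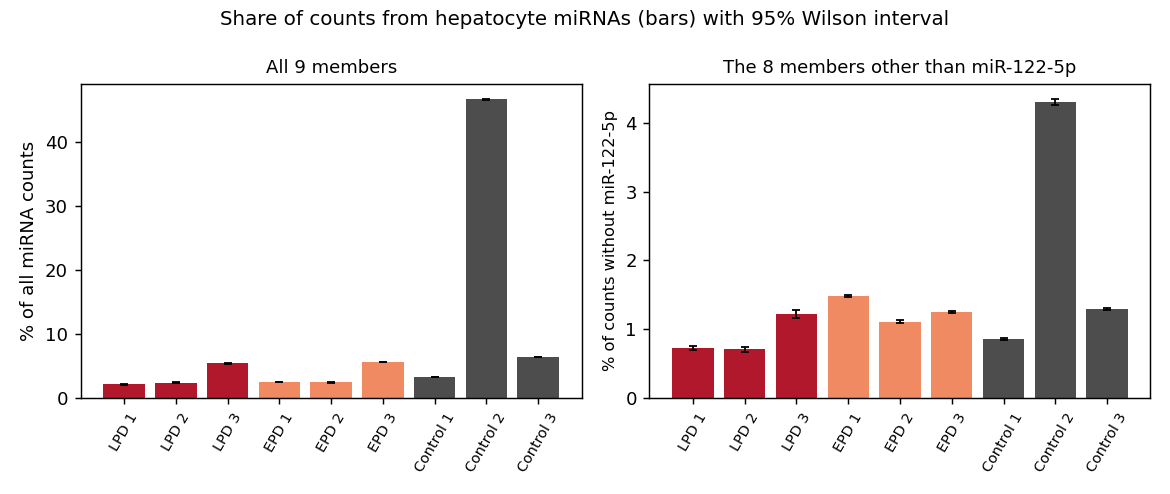
Percent of miRNA counts per library from all members (left) and from the members other than miR-122-5p, out of the counts without miR-122-5p (right). Bars are single libraries and whiskers the Wilson interval at 95%; Control 2 reaches 46.7% on the left and 4.30% on the right.

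All 9 members were higher in Control 2 than in the mean of the other controls, each by more than 1 log2 unit in CPM, which held for 14.8% of the 291 tested miRNAs with counts in Control 2. The members' median log2 ratio was 2.16, against -0.23 over those 291. miR-122-5p stood highest, 19.5 times the mean of Control 1 and 3. miR-802-3p followed with 10.0 times and miR-122-3p with 8.99 times. miR-802-5p, from a miRNA gene known for impairing glucose handling when raised in the liver of obese mice, had 7.44 times that mean. miR-192-3p had 4.46 times, miR-193a-5p 3.92 times, miR-192-5p 3.90 times and miR-194-5p, a partner of miR-192, 3.48 times. miR-365-3p was the least raised with 2.13 times. As shares of all counts, which miR-122-5p itself compresses in Control 2, these ratios were smaller, 11.6 times for miR-122-5p and 1.28 times for miR-365-3p. TMM gave Control 2 a factor of 0.669, the smallest of the 9 libraries.

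**Figure D3:**
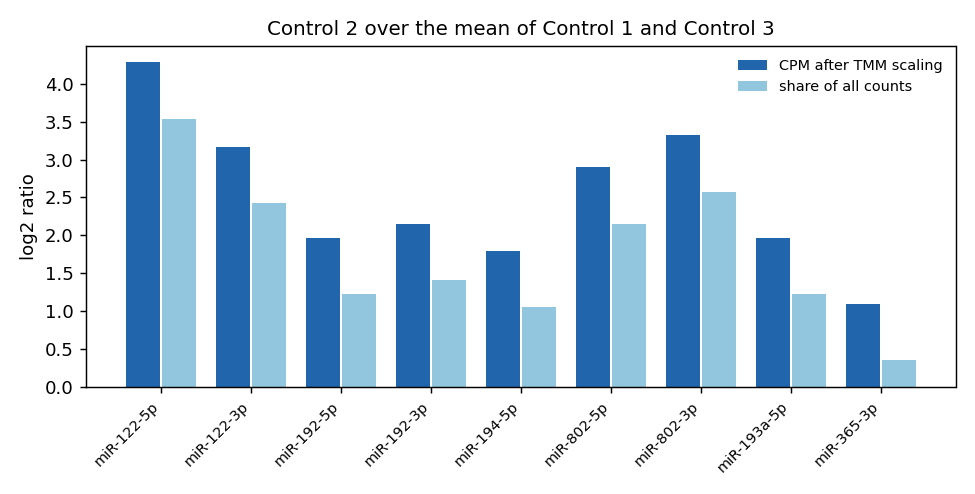
Log2 ratio of Control 2 to the mean of Control 1 and Control 3 for each member, in CPM after TMM scaling (dark bars) and as a share of all counts (light bars). All 18 bars lie above 0, from 4.28 for miR-122-5p in CPM to 0.35 for miR-365-3p as a share.

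Lists of miRNAs from other sources were raised less often in Control 2, by count and with no test. Of a list of other miRNAs that liver expresses, 3 of 16 tested were more than 1 log2 unit above the other controls, namely miR-101b-3p, miR-378a-3p and miR-22-3p. In a gut and kidney epithelium list this held for 1 of 10, miR-10a-5p. It held for 0 of 7 red cell miRNAs, 1 of 9 from platelets and leukocytes (miR-223-3p), 0 of 5 from muscle and 0 of 1 from pancreas. In a list of stellate cells and fibroblasts it held for 3 of 8, miR-145-5p, miR-29a-3p and miR-29c-3p. The 7 red cell miRNAs together took 28.2 to 40.2% of counts in LPD, 16.7 to 37.5% in EPD, and 19.1, 6.43 and 20.6% in Control 1 to 3. An index of red cell lysis, miR-451-5p set against miR-23a-3p on the log2 scale, was -3.37 to -2.58 in LPD, -4.01 to -1.35 in EPD, and -3.75, -4.58 and -2.81 in Control 1 to 3. Control 2 was thus the lowest of the 9 libraries in both red cell measures. Their part in the liver values was not tested.

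After 10 days of rotenone none of the 9 members passed the test against Control, nor did any of the 294 miRNAs that could be tested (0.0% called; 3.74%, or 11, had an unadjusted p under 0.05). All fold changes and adjusted p-values of groups come from edgeR's quasi-likelihood fit with Benjamini-Hochberg adjustment over these 294, or over the 323 that could be tested without Control 2. DESeq2 called 1 miRNA and limma-voom 0, none of them a member, and without Control 2 edgeR called 0.31% of 323, again no member. All 9 fitted changes were negative, with a median log2 fold change of -0.91 beside -0.05 over all tested miRNAs. Without Control 2 the members' median was 0.35 beside 0.08 over all. Of the 9 members, 6 had a positive sign without that library.

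miR-122-5p averaged 22868 ± 18802 CPM in EPD and 243392 ± 362872 CPM in Control (-3.41 on the log2 scale, SE 1.23, unadjusted p = 0.0220, adjusted p = 0.995). Without Control 2 its log2 fold change was -0.50 (SE 0.67, adjusted p = 0.988). Its other arm, miR-122-3p, had 16.4, 4.62 and 13.8 CPM in EPD 1 to 3 and 33.4, 433 and 62.9 CPM in Control 1 to 3. All EPD libraries lay below all controls, the single member of 9 whose groups did not overlap, against 12.9% of all tested miRNAs. Its log2 fold change was -3.91 (SE 1.91, adjusted p = 0.995), and -1.92 (SE 1.78) without Control 2. These are counts of 6 to 24 in EPD and of 41 to 339 in Control.

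miR-192-5p, which p53 is known to induce in human cells together with miR-194, had 14563, 8239 and 10699 CPM in EPD 1 to 3 and 6137, 30540 and 9511 CPM in Control 1 to 3. Its log2 fold change was -0.46 (SE 0.55, adjusted p = 0.995) and turned to 0.63 (SE 0.35, adjusted p = 0.831) without Control 2. miR-194-5p had 1815, 976 and 1068 CPM in EPD 1 to 3, against 1058, 3743 and 1091 CPM in Control 1 to 3. Its log2 fold change was -0.61 (SE 0.67) and 0.39 (SE 0.58) without Control 2. In both miRNAs EPD 1 was the highest EPD library, whereas EPD 3 was highest in miR-122-5p. miR-802-5p had 58.8, 30.0 and 67.8 CPM in EPD 1 to 3, against 42.3, 525 and 98.7 CPM in Control 1 to 3 (a log2 change of -2.08, SE 1.13, adjusted p = 0.995, or -0.33 without Control 2).

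Of the remaining members, miR-365-3p had 190 to 332 counts in EPD and 196 to 246 in Control, and the others had fewer. The log2 fold changes in EPD over Control were -0.81 (SE 1.40) for miR-192-3p, -1.67 (SE 1.43) for miR-802-3p, -0.91 (SE 1.17) for miR-193a-5p and -0.03 (SE 1.23) for miR-365-3p, each with adjusted p = 0.995. Without Control 2 they were 0.44, 0.35, 0.18 and 0.58, so all of them changed sign. miR-365-3p, whose gene lies beside that of miR-193a, had 223, 256 and 119 CPM in EPD 1 to 3 and 182, 314 and 113 CPM in Control 1 to 3. Of the 9 members it had the smallest ratio in Control 2.

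**Figure D4:**
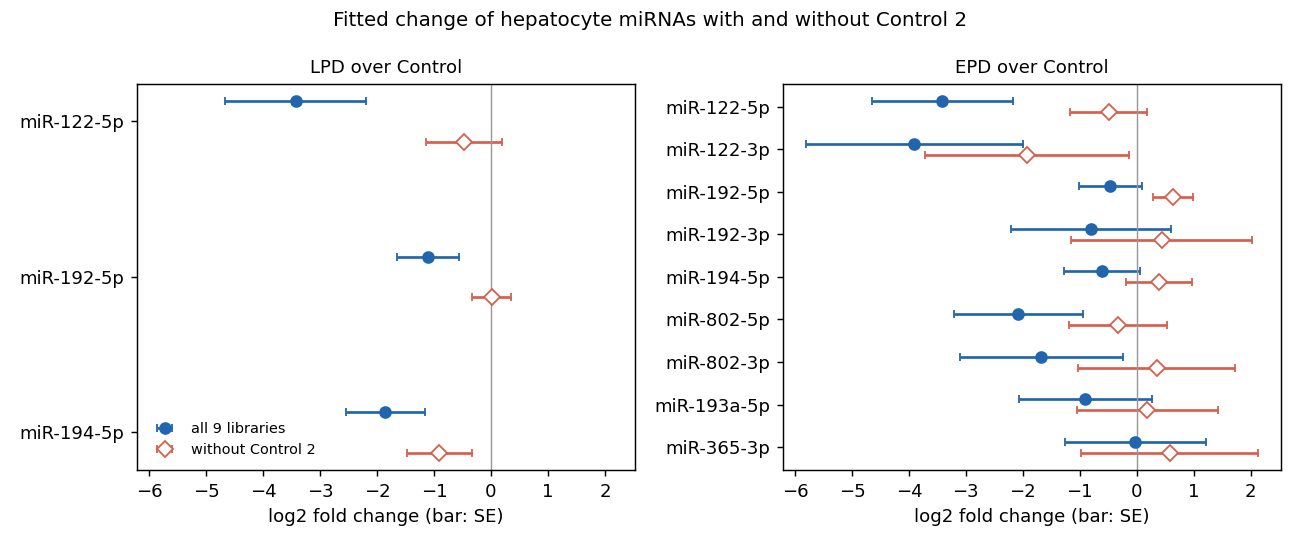
Fitted log2 fold change over Control with its SE, from all 9 libraries (circles) and without Control 2 (open diamonds), for LPD (left, the members with counts in every LPD library) and EPD (right). Without Control 2 all points move to the right, and miR-122-5p stands at -0.47 in LPD and -0.50 in EPD.

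After more than 40 days of rotenone 1 of the 9 members was called lower than in Control, miR-802-5p, while 32.7% of all 294 tested miRNAs were called lower and 37.1% were called in either direction (43.2% had an unadjusted p under 0.05, and 38.1% were called without Control 2). Of the 294, 68 had no count in any LPD library. A separate fit, restricted to the 124 miRNAs with counts in all 9 libraries, called 22 lower and 16 higher. miR-802-5p had 0 counts in all 3 LPD libraries and 42.3, 525 and 98.7 CPM in Control 1 to 3 (adjusted p = 0.00948). Over the 18 alternatives in which it could be tested the adjusted p lay between 2.09e-05 and 0.0476, and was 0.0107 without Control 2. It entered the test through its counts in EPD and Control, every refit has the same LPD counts of 0, and it is not tested where counts in all 9 libraries are required, so these refits add no independent support. Against EPD, where it had 52.2 ± 19.7 CPM, it was also called (adjusted p = 0.0236), in a comparison in which 36.7% of miRNAs were called and 32.7% were called lower (44.9% had an unadjusted p under 0.05, and 37.5% were called without Control 2). That call was lost without EPD 1 (0.0577), EPD 3 (0.0522), LPD 1 (0.0657) or LPD 2 (0.0569). Absence from LPD was common at this level: of 70 other tested miRNAs with an EPD mean between 26.1 and 104 CPM, 24 (34.3%) had no count in any LPD library.

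The opposite arm of the same hairpin was seen in LPD. miR-802-3p had 89.4, 0 and 59.3 CPM in LPD 1 to 3 (27, 0 and 9 counts), against 5.47, 4.62 and 21.3 CPM in EPD and 3.26, 85.6 and 13.9 CPM in Control. In each EPD and Control library the 5p arm had more counts than the 3p arm, by 3.18 to 10.8 times in EPD and 6.13 to 13 times in Control. In LPD 1 and LPD 3 the order was the other way, with counts in the 3p arm alone. This rests on 27 and 9 counts in libraries that held few low counts, so a change of arm cannot be read from it. miR-802-3p itself did not pass against Control (adjusted p = 0.778, or 0.247 without Control 2) or EPD (adjusted p = 0.280).

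miR-122-5p averaged 22646 ± 12480 CPM in LPD and 243392 ± 362872 CPM in Control (-3.43 on the log2 scale, SE 1.23, unadjusted p = 0.0216, adjusted p = 0.0568). It lay just outside the threshold of 0.05, and passed with DESeq2 (adjusted p = 0.0134), without Control 1 (0.0255) and without Control 3 (0.0404). The fits without Control 1 or Control 3 keep Control 2 as 1 of 2 controls, so their passes add no independent support. Without Control 2 the log2 fold change of miR-122-5p was -0.47 (SE 0.67, adjusted p = 0.632). Over EPD, with 22868 ± 18802 CPM, the log2 fold change was -0.01 (SE 1.12, adjusted p = 0.990). The means of both rotenone groups were nearly equal, but that SE leaves room for a change of more than 1 log2 unit either way. Against EPD miR-122-5p had a positive sign in 12 of 19 alternatives.

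miR-194-5p had 672, 166 and 791 CPM in LPD 1 to 3, 1815, 976 and 1068 CPM in EPD, and 1058, 3743 and 1091 CPM in Control. Every LPD library was below every other library. It was 1 of 2 members, with miR-802-5p, whose LPD values did not overlap Control, where 48.3% of all tested miRNAs did not, and the same 2 did not overlap EPD, where 52.4% did not. Its log2 fold change over Control was -1.86 (SE 0.69, adjusted p = 0.0660), which passed with DESeq2 (0.0421), and -0.90 (SE 0.57, adjusted p = 0.278) without Control 2. Over EPD it was -1.25 (SE 0.68, adjusted p = 0.202). Its cluster partner miR-192-5p had 6310, 6137 and 9045 CPM in LPD 1 to 3, overlapping Control, whose lowest library had 6137 CPM. Its log2 fold change was -1.10 over Control (SE 0.55, adjusted p = 0.161) and -0.64 over EPD (SE 0.55, adjusted p = 0.412). Without Control 2 the value over Control was 0.01 (SE 0.35, adjusted p = 0.971), and without Control 1 it was -1.50 and passed (adjusted p = 0.0445). The fit without Control 1 keeps Control 2 as 1 of 2 controls, so that pass adds no independent support.

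Of the low members, miR-122-3p had counts in LPD 3 alone among the LPD libraries (171 CPM, 26 counts) and miR-192-3p in LPD 1 alone (92.7 CPM, 28 counts). miR-193a-5p had 69.6, 0 and 79.1 CPM in LPD 1 to 3, and miR-365-3p 0, 256 and 72.5 CPM. No 2 of these 4 had the same pattern of presence across the LPD libraries. None passed against Control (adjusted p = 0.509 to 0.820, or 0.783 to 0.962 without Control 2) or against EPD (0.391 to 0.864). Without the one LPD library that held it, miR-122-3p was called lower than Control (adjusted p = 0.0237, without LPD 3), and so was miR-192-3p (0.0495, without LPD 1). Each refit leaves that miRNA only counts of 0 in LPD, so these calls follow from the library left out and are no support for a decrease. In the same refits 116 of 324 tested miRNAs were called lower without LPD 3 and 94 of 322 without LPD 1.

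Over all 9 members, 1 was called lower and 0 higher in each LPD comparison; no median is given there because 6 of the 9 had a count of 0 in at least 1 LPD library. The list of other liver-expressed miRNAs had 6 of 16 tested members called lower in LPD than in Control and 0 higher, that is 37.5% beside 32.7% of all tested miRNAs, and 6 of 17 without Control 2. The share lay near that of all miRNAs. Of the 6, miR-22-5p, miR-193b-3p and miR-193b-5p had 0 counts in every LPD library, and miR-99a-5p had 0, 0 and 21. As with miR-802-5p, these calls rest on counts of 0 in libraries that held few low counts. The most abundant of the 6 was miR-148a-3p, with 7237 ± 530 CPM in LPD against 19618 ± 4647 CPM in Control (-1.44 on the log2 scale, SE 0.25, adjusted p = 0.00522, or -1.30 with adjusted p = 0.0104 without Control 2). miR-203a-3p, mainly of epithelium, fell as well (-1.99, SE 0.55, adjusted p = 0.0200, or -2.25 with adjusted p = 0.00993 without Control 2). miR-378a-3p (-0.53, SE 0.59) and miR-101b-3p (-0.84, SE 0.58) did not pass, and had values of 0.15 and 0.26 without Control 2. Over EPD 5 of the 16 were called lower and 0 higher, that is 31.2% beside 32.7% of all tested miRNAs, and in EPD over Control 0 were called. The 5 again included miR-22-5p, miR-193b-3p and miR-193b-5p.

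Ratios of members within a library do not depend on library scaling. The log2 ratio of miR-122-5p to miR-192-5p was 1.21, 1.41 and 2.03 in LPD 1 to 3, -0.25, 0.52 and 2.06 in EPD 1 to 3, and 1.86, 4.44 and 2.26 in Control 1 to 3. In counts, miR-122-5p exceeded miR-192-5p by 21.7 times in Control 2, by 2.31 to 4.81 times in 6 other libraries, by 1.43 times in EPD 2, and was below it in EPD 1 (0.840). The group means were 1.55 ± 0.43 in LPD, 0.77 ± 1.18 in EPD and 2.85 ± 1.39 in Control. The difference from Control was -1.30 for LPD and -2.08 for EPD (exact permutation p = 0.2 each, adjusted over 6 tests 0.3), and without Control 2 it was -0.51 and -1.29 (exact p = 0.3 each). With 3 libraries against 3 this two-sided test cannot give a p under 0.1. LPD over EPD differed by 0.78 (exact p = 0.4).

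The log2 ratio of miR-192-5p to miR-194-5p was 3.23, 5.19 and 3.51 in LPD 1 to 3, 3.004, 3.08 and 3.32 in EPD 1 to 3, and 2.54, 3.03 and 3.12 in Control 1 to 3. Control 2 lay between the other controls here, so both miRNAs were raised in it by a like factor. Each LPD library lay above each control, by 1.08 on average (exact permutation p = 0.1, the smallest possible, adjusted 0.3), and LPD 2 rested on 37 counts of miR-194-5p. Without LPD 2 the difference was 0.47, and without Control 2 it was 1.14 (exact p = 0.3). EPD over Control differed by 0.24 (exact p = 0.5), or 0.31 without Control 2 (exact p = 0.5), and LPD over EPD by 0.84 (exact p = 0.2).

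**Figure D5:**
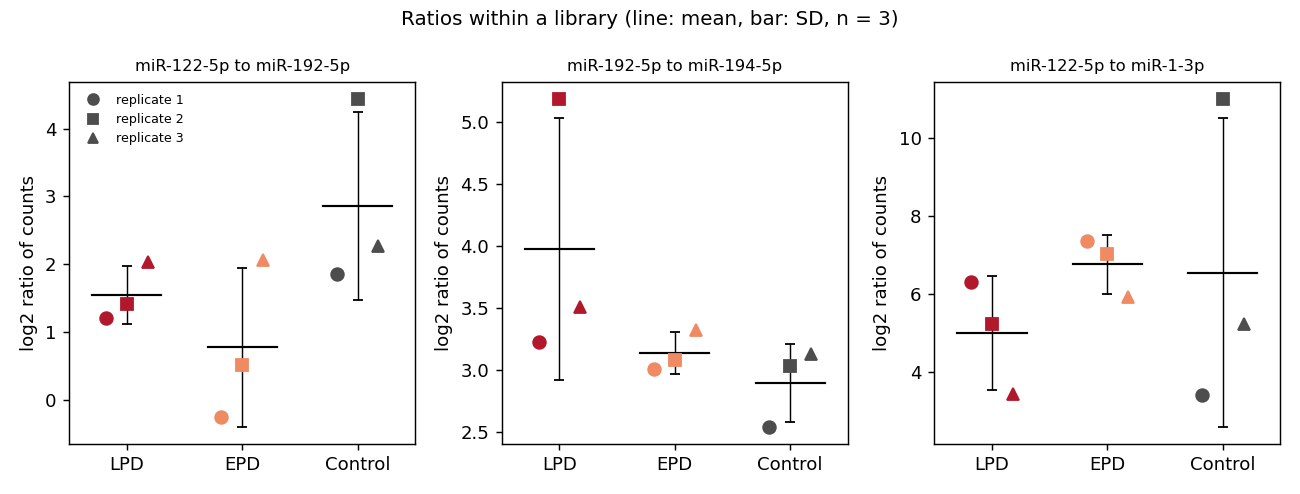
Log2 ratios of counts within each library for 3 pairs of miRNAs, by group, with the mean (line) and SD (bar, n = 3). Control 2 is the highest point for miR-122-5p over miR-192-5p (4.44) and over the muscle miRNA miR-1-3p (11.01), and lies within its group for miR-192-5p over miR-194-5p (3.03).

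Muscle miRNAs, also tissue-specific markers released by damaged cells, had the same highest library as miR-122-5p in LPD and EPD but not in Control. miR-122-5p had 79.9, 37.9 and 10.8 times the counts of miR-1-3p in LPD 1 to 3, 166, 130 and 60.2 times in EPD 1 to 3, and 10.6, 2073 and 37.3 times in Control 1 to 3. The 7 muscle miRNAs together took 0.106, 0.0758 and 1.24% of counts in LPD, 0.0297, 0.0572 and 0.494% in EPD, and 0.856, 0.0960 and 0.468% in Control. LPD 3 and EPD 3, the libraries of their groups highest in miR-122-5p, were also highest in muscle miRNAs, whereas Control 2 was the lowest control. The part of muscle miRNAs in the liver values was not tested.

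Across the 9 libraries the members followed miR-122-5p only in part. Of the members set against it, all but miR-192-5p and miR-194-5p had a count of 0 in LPD. For miR-122-3p this was so in LPD 1 and LPD 2, and for miR-802-5p in every LPD library. A count of 0 enters r through a small added prior count, so r over all 9 libraries rests partly on values that were not measured. Pearson's r of log2 CPM with miR-122-5p was 0.77 for miR-122-3p (exact permutation p = 0.00451, adjusted over 8 relations 0.0361) with Spearman's rho of 0.70 (exact p = 0.0433, adjusted 0.266). It was 0.79 for miR-192-5p (exact p = 0.0391, adjusted 0.140), with rho 0.42 (exact p = 0.270). For the other 6 members r lay between 0.26 and 0.63, with exact p of 0.0526 to 0.443, and rho between -0.02 and 0.65, with exact p of 0.0666 to 0.982. Without Control 2 and Control 3, the libraries farthest from the median of miR-122-5p, r was 0.61 for miR-122-3p (exact p = 0.150) and 0.09 for miR-192-5p (exact p = 0.837), each over 7 libraries. With Control 2 alone left out, r of miR-192-5p was already 0.16 over 8 libraries, so that relation rests largely on Control 2. Without Control 2 and Control 3, r of miR-122-3p stayed closer to its value over all 9 but no longer passed. Over the 6 Control and EPD libraries r was 0.96 for miR-802-5p (exact p = 0.0125), 0.94 for miR-802-3p (exact p = 0.0153) and 0.90 for miR-122-3p (exact p = 0.0181). Over the 8 libraries without Control 2 it was 0.28, 0.37 and 0.68 for these 3. Those 8 libraries also include LPD, so the sets differ by more than Control 2.

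Among 181 tested miRNAs outside the members with a mean of at least 50 CPM, the one whose log2 CPM followed miR-122-5p most closely over the 9 libraries was miR-101b-3p, which liver also expresses (r = 0.95, given as a description). It had 1328, 1044 and 2162 CPM in LPD 1 to 3, 1146, 1033 and 1540 CPM in EPD 1 to 3, and 1084, 5391 and 1654 CPM in Control 1 to 3, and r was 0.78 without Control 2. In each group the library highest in miR-122-5p was also highest in miR-101b-3p. The next were miR-30a-5p (r = 0.77), miR-22-3p (0.76), miR-24-3p (0.76) and miR-497-5p (0.58), and without Control 2 their r was 0.06 to 0.25.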

How the data were processed

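Small RNA of rat serum was sequenced in 9 libraries. The labels' protocols name a miRNeasy serum kit for RNA and a QIAseq miRNA kit for the libraries. The authors deposited raw counts, whole numbers for each of 567 mature miRNAs, and 0 values differed between the matrix and the single files. The submitters' processing notes name build mRatBN7.2. For aligner, counting tool, annotation and use of molecular identifiers the answer is not given in the sources used here. Reads copied by PCR are not separate molecules, so Wilson intervals (95%) and floors (3 counts) cover counting error only.

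Groups came from the sample titles, which do not say whether samples of a group are separate animals; the p-values then cover only the spread among these samples, which may be technical. Within groups, chi-square per degree of freedom was at least 31.2. miRNAs were kept with filterByExpr by group (at least 10 counts, 15 in total), scaled by TMM, and all 9 libraries were fitted together with edgeR 4.0.16 (robust quasi-likelihood, Benjamini-Hochberg adjustment, threshold 0.05). limma 3.58.1 (voom) and DESeq2 1.42.0 were alternatives. CPM was computed from the deposited counts with the TMM factors. Ratios used a prior of 0.5 counts and exact permutation tests. The fit was tested on simulated data, where it missed many of the changed miRNAs, so a miRNA that did not pass may still differ.

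All members are named. Also named were the 5 miRNAs most correlated with miR-122-5p, and up to 4 of each list by mean level; those called or raised in a list, and miR-1-3p, were named after their values were seen. Members and lists were chosen with earlier results of these data known. Sequences are from RefSeq, GRCr8.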

Additional observations from a re-analysis of the deposited data

How the results depend on the processing

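Each comparison of groups was refitted under 19 alternatives, 1 of them (edgeR without its robust option) chosen after seeing the data. Calls in LPD over Control numbered 38 with miRNAs counted in all 9 libraries and 52 with only the 2 groups fitted, against 109, and in LPD over EPD 35 and 67, against 108. The first tested 124 miRNAs, and the second tested 247 and 246 and fitted 6 libraries; the cause was not tested. EPD over Control had 1 call with counts in all 9 libraries and with DESeq2, against 0, and 0 to 1 with single libraries left out. The median log2 fold change of all tested miRNAs in LPD over Control was -1.04, and became -0.83 with DESeq2 size factors, -1.74 with limma-voom, -2.34 with no filter and 0.04 with counts in all 9 libraries. With the replicate block the calls numbered 101 in LPD over Control, 101 in LPD over EPD and 0 in EPD over Control, and no member's call changed. Deviations of same-numbered samples correlated between -0.19 and 0.28, and those of differently numbered samples between -0.30 and 0.34. Between EPD and LPD the same-numbered values were 0.27, 0.04 and 0.28. The titles do not say whether samples of one number come from one animal, and these values cannot settle it. The main fit treats all samples as unpaired.

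The log2 fold change of miR-122-5p in LPD over EPD turned positive with DESeq2 size factors (0.26), library totals (0.11), scaling without the members (0.0434), counts in all 9 libraries (0.33), DESeq2 (0.26), limma-voom (0.11), only the 2 groups (0.16) and the replicate block (0.0360), and ran from -0.39 to 0.88 with single libraries left out. That of miR-365-3p in EPD over Control turned positive with library totals (0.17), scaling without the members (0.0369), no filter (0.13), limma-voom (0.14), only the 2 groups (0.0661) and the replicate block (0.10), and ran from -0.26 to 0.58 with single libraries left out. With single libraries left out, EPD over Control ran from -0.80 to 0.63 for miR-192-5p, -1.58 to 0.44 for miR-192-3p, -0.89 to 0.39 for miR-194-5p, -2.69 to 0.35 for miR-802-3p and -1.24 to 0.18 for miR-193a-5p, and LPD over Control ran from -1.50 to 0.0129 for miR-192-5p; each positive value is the fit without Control 2. Other causes were not tested.

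Pearson's r with miR-122-5p without Control 2 was 0.68 for miR-122-3p, 0.16 for miR-192-5p and -0.28 for miR-192-3p. In the 6 Control and EPD libraries it was 0.77 for miR-192-5p, 0.96 for miR-802-5p and 0.94 for miR-802-3p. The members' mean share without miR-122-5p was 0.885% in LPD and 1.28% in EPD. The lower depth of the LPD libraries limits what can be said of the members with few counts.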
